A study of Pyrus communis with 12 samples.

Results

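The genes described here are 8 auxin signalling and transport genes of pear, the rows of the count table with 8 listed identifiers, out of 45217 genes in the table. As the study annotated them, PCP003908 is an Aux/IAA gene, PCP012166 an IAA-like auxin responsive factor, PCP022634 an Auxin Response Factor, PCP012330 and PCP029646 auxin responsive proteins, PCP019182 and PCP011951 auxin-induced proteins, and PCP021016 the carrier PIN3. Auxin is a growth hormone that is perceived by F-box receptors, which mark Aux/IAA proteins for degradation. This releases the Auxin Response Factors, the DNA-binding proteins that Aux/IAA proteins hold in check. Cells pass auxin on through PIN proteins, efflux carriers of the plasma membrane, and applied auxin delays ripening in some fruits. The names auxin responsive and auxin-induced protein are given to several gene families that respond to the hormone, so that they fix no role. The study had picked these genes among those that differed between the same libraries, PCP003908 as a candidate for qPCR and the others by their cluster or by their correlation with firmness, and their directions are therefore not independent evidence.

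The fruit came from the cultivar 'Abate Fetel' of Pyrus communis, the European pear, and were picked from the tree at 4 harvesting stages that the labels call harvest weeks 1 to 4 (H1, H2, H3 and H4). No fruit of these libraries had been stored or treated, and the tissue was the peeled flesh. Each stage had 3 libraries from biological replicates, all from 1 orchard, and from the sampling dates in the study the interval from H2 to H3 was longer than the other intervals. Fruit were chosen within a stage for a like index of chlorophyll absorbance, in a lower class at each later stage, so that date and index cannot be told apart. Library totals ranged from 7776419 to 10675582 counts. Levels are given in CPM (counts scaled to a common library size by TMM) and are not corrected for gene length, so that levels were compared between stages of a gene but not between genes. A gene is named as called where the quasi-likelihood test of edgeR, with p-values adjusted by Benjamini-Hochberg over the 23155 genes that reached 1 CPM in 3 or more libraries, gave an adjusted p under 0.05. Of the 8 genes, 7 entered the test, and PCP029646 was too low. PCP012330 and PCP011951 entered it only with the help of libraries of H4, where they were higher than in H1, so that calls of theirs against H4 are descriptions, and 5 genes passed without H4. In whole flesh, fewer cells of a type and less RNA per cell cannot be told apart. The tissue was not checked against marker genes here.

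Over the whole harvest window, from H1 to H4, transcripts of 3 of these 5 auxin genes rose (Aux/IAA PCP003908, IAA-like PCP012166 and auxin-induced PCP019182) and those of 2 fell (the Auxin Response Factor PCP022634 and PIN3 PCP021016). All 5 were called, beside 34.5% of all genes tested in this comparison, 18.1% called higher and 16.4% called lower. PCP012330 was the other of the 6 genes called among the 7 tested, as a description, since it entered through the filter on H4. When libraries were scaled by their totals and not by TMM, 39.1% of all called genes at H1–H4 were higher instead of 52.5%, and the 6 auxin genes were called in the same directions. The libraries of H1 and H4 did not overlap for any of the 5 genes that passed without H4, beside 44.5% of the genes tested. Those of PCP012330 and PCP011951 did not overlap either, again as a description. The log2 fold changes of the 5 genes were 1.15 (PCP019182), 0.88 (PCP003908), 0.87 (PCP012166), -0.32 (PCP022634) and -1.32 (PCP021016). Those of all genes tested had a median of 0.00. With PCP012330 and PCP011951 added, the median of the 7 tested auxin genes was 0.88, likewise as a description. It was the same with the genes at the floor of 3 counts set at their bound.

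The auxin genes called at the 3 transitions between neighbouring stages were not the same, and the differences between transitions were not tested. From H1 to H2, 2 genes rose (PCP012166 and PCP019182), where 7.1% of all genes were called, 3.94% higher and 3.17% lower, and the libraries of 2 auxin genes did not overlap, beside 24.5% of all genes. From H2 to H3, of the 5 genes that passed without H4, PCP003908 and PCP012166 rose. In this comparison 5.34% of all genes were called, 2.98% higher and 2.36% lower. PCP012330 was called higher as well, but it entered the test only with libraries of H4. The libraries of 4 auxin genes, PCP012330 among them, did not overlap, beside 24.9% of all genes. From H3 to H4, of the 5 genes that passed without H4, PCP003908 was called higher, where 20.5% of all genes were called, 11% higher and 9.51% lower. PCP012330 was also called higher, through the filter on H4. The libraries of 5 auxin genes, PCP012330 among them, did not overlap, beside 39.1% of all genes. With total-count scaling 32.0% of the genes called at H3–H4 were higher, instead of 53.6%. With TMM scaling none of the 7 genes was called lower by edgeR at these 3 transitions, with 0, 0 and 1 genes (PIN3) lower at an unadjusted p under 0.05, and neither DESeq2 nor limma-voom called any lower. With total-count scaling, edgeR called the Auxin Response Factor PCP022634 lower at H3–H4. The transitions share the libraries of a common stage, so their calls are not independent of each other.

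**Figure D1:**
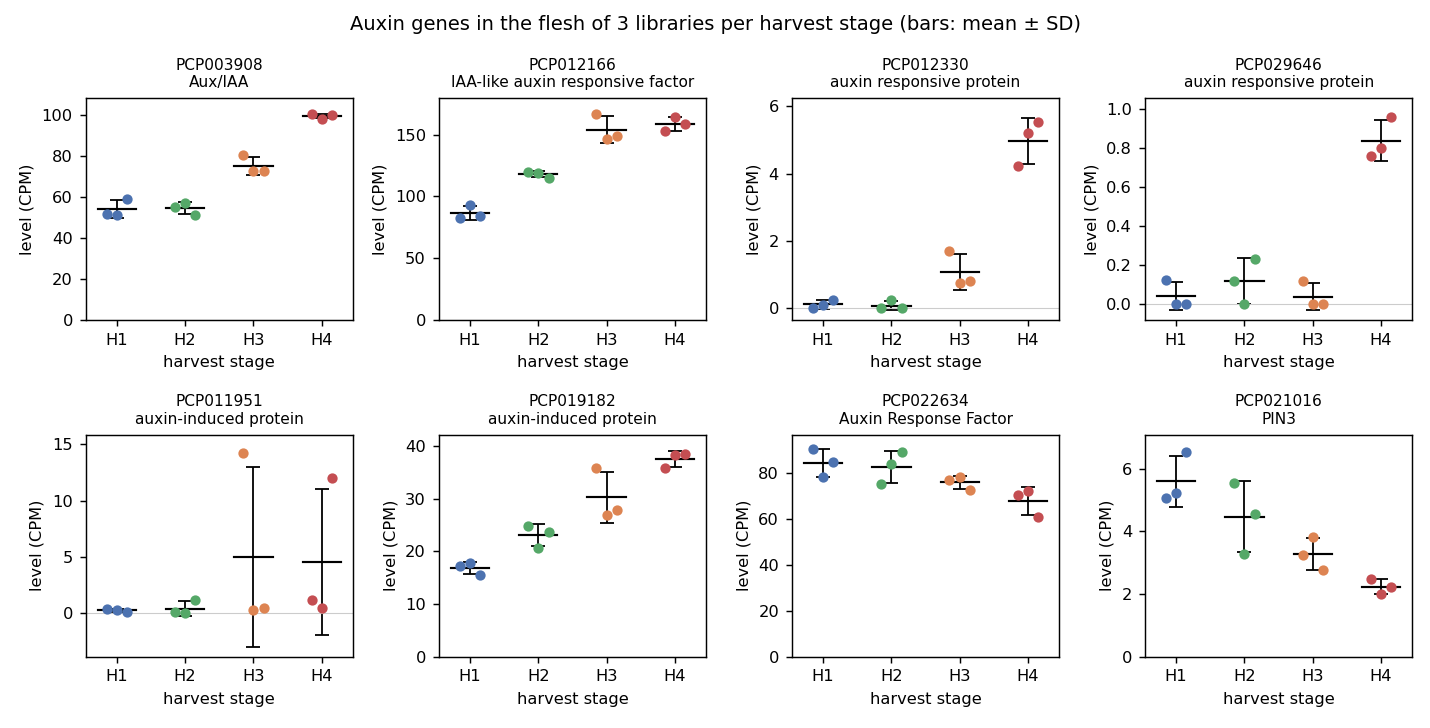
Level of the 8 auxin genes (y-axis, CPM after TMM scaling, each panel with its own scale) at the 4 harvesting stages (x-axis), with a point for each library and bars for the mean ± SD (n = 3). The first 3 panels and PCP019182 climb at different stages, PCP029646 stays below 1 CPM, PCP011951 is high in 1 library of H3 and 1 of H4, and the Auxin Response Factor and PIN3 decline.

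Aux/IAA proteins are short-lived repressors, and many of their genes are themselves switched on by auxin. The Aux/IAA gene PCP003908 stood at 52.0, 51.3 and 59.2 CPM in the 3 libraries of H1 and at 55.4, 57.2 and 51.3 CPM in H2. In H3 it reached 80.3, 72.4 and 72.8 CPM, and in H4 100.2, 98.2 and 100.0 CPM. The libraries of H1 and H2 overlapped, every library of H3 lay above them, and every library of H4 lay above H3. The stage means were 54.2 ± 4.36, 54.6 ± 3.05, 75.2 ± 4.47 and 99.5 ± 1.12 CPM (SD, n = 3).

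PCP003908 therefore rose at 2 of the 3 transitions. Its log2 fold change was 0.46 from H2 to H3 (SE 0.07, edgeR, adjusted p = 0.0021) and 0.40 from H3 to H4 (SE 0.07, edgeR, adjusted p = 0.0012). Between H1 and H2 it was 0.01, with an approximate 95% interval of -0.14 to 0.17, and it was not called (edgeR, adjusted p = 0.96). Over the whole window the level became 1.84 times that of H1 (log2 fold change 0.88, SE 0.07, edgeR, adjusted p = 1.0e-06). The calls of PCP003908 at H2–H3, H3–H4 and H1–H4 held under all 21 alternatives run. By qPCR, the study described its Aux/IAA gene as steady and basal from H1 to H3 and higher at H4. The rise from H2 to H3 seen in these counts differs from that description.

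The IAA-like auxin responsive factor PCP012166 was already called at the first transition. In H1 its libraries were at 82.8, 92.9 and 83.9 CPM, and in H2 at 119.8, 119.1 and 115.1 CPM. Those of H3 were at 166.8, 146.5 and 149.1 CPM, and those of H4 at 152.7, 164.4 and 158.8 CPM. The first 3 stages were separated completely, and H3 and H4 overlapped. The log2 fold change was 0.45 from H1 to H2 (SE 0.06, edgeR, adjusted p = 0.0013) and 0.39 from H2 to H3 (SE 0.06, edgeR, adjusted p = 0.0038).

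From H3 to H4 the log2 fold change of PCP012166 was 0.04 (approximate 95% interval -0.10 to 0.18, edgeR, adjusted p = 0.71). This value changed sign, to -0.051, with total-count scaling, and no direction can be given for that transition. Over the whole window PCP012166 and PCP003908 ended at nearly the same fold, 1.83 and 1.84 times their level in H1, with PCP012166 called at H1–H2 and H2–H3 and PCP003908 at H2–H3 and H3–H4.

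Both genes could be set against each other within a library, as the reads of one gene per 100 reads of the other, a ratio that no scaling of the libraries can change. For every 100 reads of PCP012166, PCP003908 had 62.7, 55.3 and 70.6 reads in H1 and 46.2, 48.0 and 44.6 in H2. In H3 the values were 48.2, 49.5 and 48.8, and in H4 65.6, 59.7 and 63.0. The ratio was thus lower in all 6 libraries of H2 and H3 than in all 6 of H1 and H4, and the libraries of H1 and H4 overlapped. The ratio was chosen after the levels were seen and is given without a test.

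**Figure D2:**
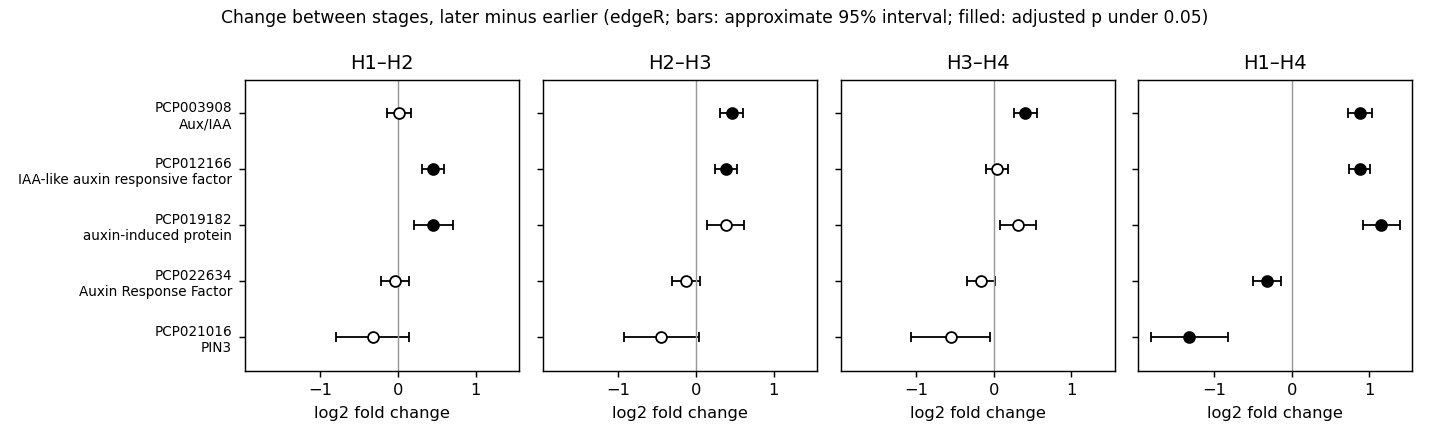
Log2 fold change (x-axis, later minus earlier stage) of the 5 auxin genes with more than 3 counts in every library (y-axis) in 4 comparisons, with bars for the approximate 95% interval and filled points for an adjusted p under 0.05 (edgeR). Aux/IAA is at 0.01 in H1–H2 and at 0.46 and 0.40 afterwards, the IAA-like factor is at 0.45, 0.39 and 0.04, and PIN3 and the Auxin Response Factor are filled only in H1–H4.

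Auxin Response Factors bind the promoters of auxin-responsive genes and, depending on the member, activate or repress them. PCP022634 had 90.4, 78.2 and 84.9 CPM at stage H1 and 75.2, 83.7 and 89.0 CPM at H2. It had 76.8, 78.3 and 72.7 CPM at H3 and 70.2, 72.1 and 60.8 CPM at H4. The libraries of H1 and H2 overlapped, as did those of H2 and H3, and those of H4 lay just below H3. This gene had the smallest change among the 6 called at H1–H4, from a mean of 84.5 ± 6.08 CPM to 67.7 ± 6.03 CPM (SD, n = 3), with a log2 fold change of -0.32 (SE 0.08, edgeR, adjusted p = 0.0097).

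At no single transition was PCP022634 called, with log2 fold changes of -0.03, -0.12 and -0.17 at H1–H2, H2–H3 and H3–H4 (edgeR, adjusted p = 0.90, 0.54 and 0.19). With total-count scaling the value at H3–H4 was -0.26 and was called (edgeR, adjusted p = 0.043). The adjusted p-value of the fall from H1 to H4 ranged from 0.0020 to 0.048 over all alternatives.

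Reads of the Aux/IAA gene per 100 reads of the Auxin Response Factor were followed from stage to stage. Reads are not corrected for gene length, so only the change of this ratio between stages can be read. Whether these 2 pear proteins bind each other was not measured here. The libraries of H1 had 57.5, 65.6 and 69.7, and those of H2 had 73.6, 68.4 and 57.6. The libraries of H3 had 104.6, 92.6 and 100.2, and those of H4 had 142.8, 136.2 and 164.4. H1 and H2 overlapped, and H3 and H4 were each separated from the stage before. The mean went from 64.3 ± 6.23 in H1 to 147.8 ± 14.8 in H4 (SD, n = 3), again as a description chosen after the levels were seen.

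**Figure D3:**
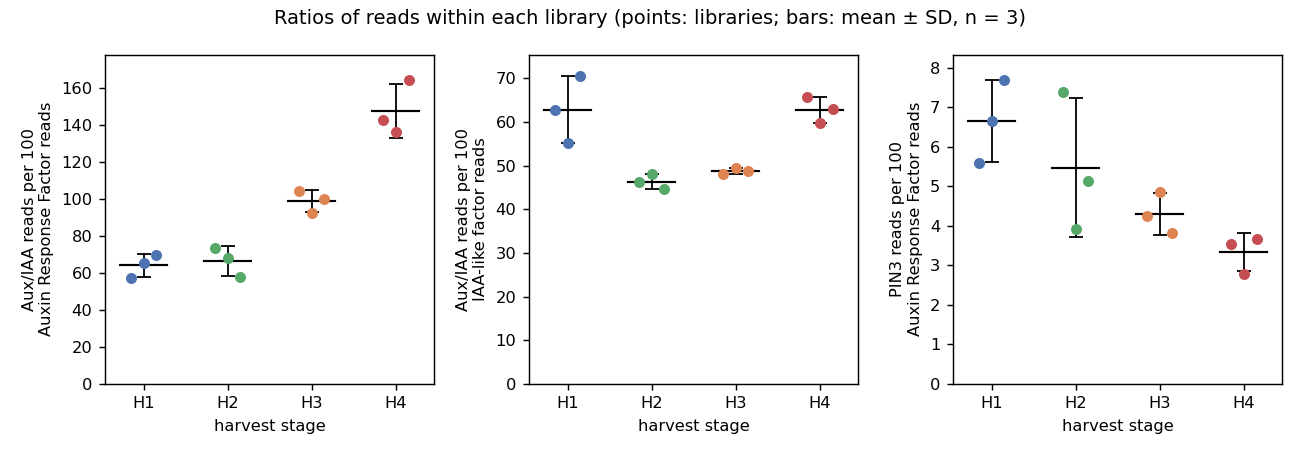
Reads of one auxin gene per 100 reads of another in the same library (y-axis) at the 4 stages (x-axis), with a point for each library and bars for the mean ± SD (n = 3). Aux/IAA against the Auxin Response Factor climbs from 64.3 to 147.8, Aux/IAA against the IAA-like factor dips to 46.3 and 48.8 in H2 and H3 between 62.9 and 62.8 in H1 and H4, and PIN3 against the Auxin Response Factor declines from 6.64 to 3.33.

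PIN3, an efflux carrier known from Arabidopsis for redirecting auxin flow when organs bend, was the auxin gene with the largest fall. PCP021016 had 5.06, 5.21 and 6.52 CPM at H1 and 5.55, 3.28 and 4.57 CPM at H2. It had 3.26, 3.81 and 2.77 CPM at H3, and 2.484, 1.9997 and 2.230 CPM at H4. The mean level was lower at each later stage, the libraries of H1 overlapped with H2 and those of H2 with H3, and all of H4 lay below H3. From H1 to H4 the log2 fold change was -1.32 (SE 0.23, edgeR, adjusted p = 0.00064), which left 0.400 of the level in H1.

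The steps of PCP021016 were of similar size, with log2 fold changes of -0.32, -0.44 and -0.55, and none was called (edgeR, adjusted p = 0.47, 0.36 and 0.12). The gene rested on 20 to 52 counts per library, and its approximate 95% intervals at the transitions reached from -1.06 to 0.15. Per 100 reads of the Auxin Response Factor, PIN3 had 5.59 to 7.68 reads in H1 and 2.77 to 3.66 in H4.

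Of the 2 genes annotated as auxin-induced proteins, PCP019182 had a rising mean throughout. At H1 its levels were 17.2, 17.8 and 15.5 CPM, and at H2 they were 24.8, 20.7 and 23.8 CPM. At H3 they were 35.8, 27.0 and 27.9 CPM, and at H4 they were 35.9, 38.3 and 38.4 CPM. No library of a stage overlapped with the stage before, although the highest of H3 and the lowest of H4 nearly met. Over the whole window PCP019182 rose from a mean of 16.8 ± 1.16 CPM to 37.5 ± 1.45 CPM (SD, n = 3), with a log2 fold change of 1.15 (SE 0.11, edgeR, adjusted p = 5.5e-06).

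The steps of PCP019182 lay close to the threshold. At H1–H2 the log2 fold change was 0.45 (SE 0.11, edgeR, adjusted p = 0.032), at H2–H3 it was 0.39 (adjusted p = 0.065, edgeR) and at H3–H4 it was 0.31 (adjusted p = 0.052, edgeR). The call at H1–H2 was lost without H1 replicate 1, H1 replicate 3, H2 replicate 1 or H2 replicate 3 (edgeR, adjusted p = 0.075, 0.11, 0.13 and 0.11) and with only the 6 libraries compared (0.051). The value at H2–H3 was called without H3 replicate 2 (edgeR, adjusted p = 0.047), and that at H3–H4 without H1 replicate 2 or H3 replicate 1 (edgeR, adjusted p = 0.044 and 0.0056) and with limma-voom (0.032).

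The other auxin-induced protein, PCP011951, was high in 2 libraries only. Its counts were 3, 3 and 1 at H1, then 1, 0 and 10 at H2, then 118, 3 and 4 at H3 and finally 11, 5 and 113 at H4. H3 replicate 1 and H4 replicate 3 thus held 118 and 113 counts, and the other 10 libraries 0 to 11. The deposited stage columns are means of the 3 libraries, and in them the gene appears to climb, whereas the 3 libraries of H3 ranged from 3 to 118 counts and those of H4 from 5 to 113.

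In levels, PCP011951 was at 14.2, 0.317 and 0.461 CPM in H3 and at 1.19, 0.500 and 11.998 CPM in H4. It was not called at H1–H2 or H2–H3 (edgeR, adjusted p = 0.93 and 0.30). For its comparisons with H4 no p-value is given, since libraries of H4 helped to bring the gene into the test. Without H3 replicate 1 its log2 fold change went from 3.45 to -0.18 at H2–H3 and from -0.12 to 3.51 at H3–H4. Without both of these libraries the gene did not reach the level needed to enter the test.

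Other genes moved with PCP011951 in the same pair of libraries. Among the genes tested, 7 had in both libraries less than 1 in 2 of the lowest level of the other 10 libraries, and 4 of these had no count in either. In the other direction, searched among all genes of the table and not only those tested, 2 genes had in both libraries over 5 times the highest level of the other 10. PCP011951 was among them. The gene most like PCP011951 in pattern was PCP013896 (r = 0.95), named after the values were seen. PCP040189, for which no annotation was used here, had 90 to 146 counts in each of the other 10 libraries and 0 in H3 replicate 1 and H4 replicate 3. The counts of PCP011951 and PCP040189 together came to 101 to 151 in all 12 libraries, and their summed level varied by 15.6% (coefficient of variation), against 193% for PCP011951 alone. PCP040189 was chosen after the values were seen, as the gene among the 4 whose sum with PCP011951 varied least. The small variation of the sum therefore follows in part from this choice. The next, PCP038012, gave a sum that varied by 15.7%, so the choice between them is arbitrary. The remaining 2 of the 4 gave sums that varied more. With PCP040536 the sum varied by 27.8%, from 113 to 341 counts, and with PCP005655 by 74.8%. Among the 7, PCP035554 gave a sum that varied less (13.9%), but it kept 24 to 30 counts in the 2 libraries. No other pair of libraries was searched in this way. The cause was not tested. In H3 replicate 1 several other auxin genes were also above both other libraries of H3: PCP012330 was at 1.69 CPM against 0.740 and 0.807 CPM, PCP019182 at 35.8 against 27.0 and 27.9 CPM, PCP012166 at 166.8 against 146.5 and 149.1 CPM, and PCP003908 at 80.3 against 72.4 and 72.8 CPM. PCP029646 had 1 count there against 0 and 0, under the floor of 3 counts. The Auxin Response Factor PCP022634 and PIN3 PCP021016 were between the other two. In H4 replicate 3, PCP003908, PCP012166 and PCP021016 were between the other libraries of H4, and PCP022634 was below both. PCP012330, PCP029646 and PCP019182 were above both, the last at 38.43 against 35.86 and 38.29 CPM. The share of all genes highest in either library was not counted. No effect of these libraries on auxin genes is therefore read from this.

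**Figure D4:**
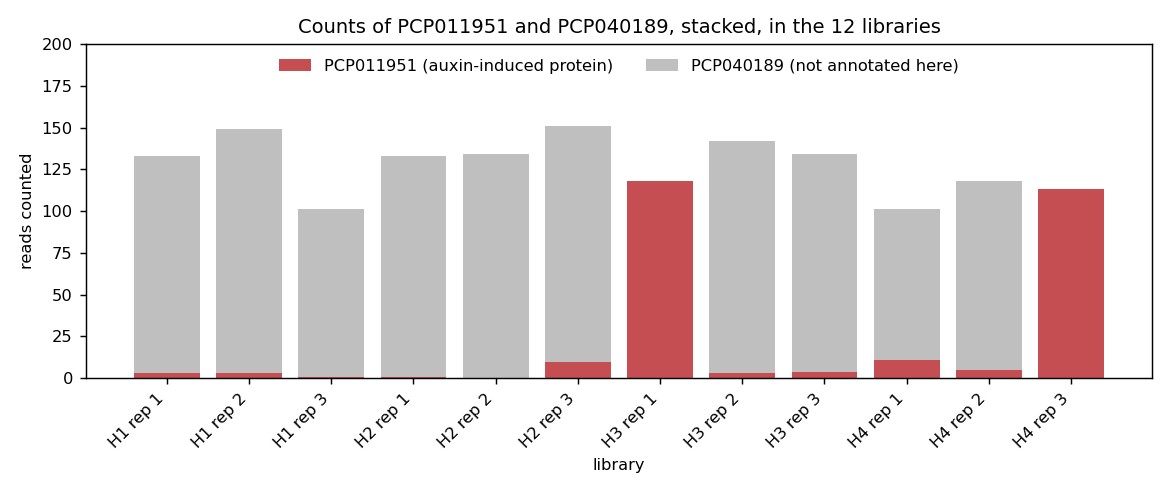
Reads counted (y-axis) for PCP011951 (red) and PCP040189 (grey), stacked, in each of the 12 libraries (x-axis). Red fills the whole bar in H3 replicate 1 (118) and H4 replicate 3 (113) and at most 11 reads elsewhere, while the full bars stay between 101 and 151. Of the genes low in both of these libraries and with no count in either, PCP040189 was chosen because its sum varied least.

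Both genes annotated as auxin responsive proteins were close to absent early and detected in all libraries of H4. PCP012330 had 0, 1 and 2 counts at H1, then 0, 2 and 0 at H2, then 14, 7 and 7 at H3 and finally 39, 52 and 52 at H4. The libraries of H1 and H2 overlapped at or under 3 counts, a level treated as a floor, those of H3 lay above and those of H4 above H3. In H4 its level was 4.98 ± 0.682 CPM (SD, n = 3), at least 13.8-fold higher than the floor of 3 counts per library in H1.

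The later step of PCP012330, from 1.08 ± 0.529 CPM in H3 to 4.98 CPM in H4, gave a log2 fold change of 2.20 (SE 0.49, edgeR). No p-value is given for its comparisons with H4, since the libraries of H4 brought the gene into the test. The earlier step, from H2 to H3, was at least 2.97-fold (edgeR, adjusted p = 0.027), in a gene that entered the test only with libraries of H4. The call of PCP012330 at H2–H3 was lost without H2 replicate 1, H2 replicate 3 or H3 replicate 1 (edgeR, adjusted p = 0.10, 0.10 and 0.097), with limma-voom (0.079) and with only the 6 libraries compared (0.087).

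The second gene, PCP029646, rested on fewer counts. Its counts were 1, 0 and 0 at H1, then 1, 0 and 2 at H2, then 1, 0 and 0 at H3 and finally 7, 8 and 9 at H4. Every library of H4 lay above every earlier library, and H1, H2 and H3 overlapped at or under the floor. The level in H4, 0.837 ± 0.105 CPM (SD, n = 3), was at least 2.45-fold higher than the floor in H3 and at least 2.32-fold higher than that in H1. With no filter on low counts, where it entered the test, PCP029646 was called at H3–H4 and H1–H4 (edgeR, adjusted p = 0.045 and 0.031). A rise of PCP029646 before H4 was not detectable at this depth.

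The study named 2 more genes of the auxin pathway, both as auxin-induced proteins, both with libraries of H1 and H4 that did not overlap. PCP036703 fell from 38.3, 46.8 and 43.4 CPM in H1 to 22.68, 21.997 and 22.40 CPM in H4, with no overlap at any transition (log2 fold change -0.94, SE 0.08, edgeR, adjusted p = 1.3e-06). It was called lower at H1–H2 (log2 fold change -0.38, edgeR, adjusted p = 0.0081) and at H3–H4 (-0.30, edgeR, adjusted p = 0.015). At H2–H3 it was not called (-0.25, edgeR, adjusted p = 0.086), and DESeq2 did not call it at H3–H4. PCP022563 had 5, 7 and 3 counts at H1, then 9, 8 and 4 at H2, then 3, 0 and 4 at H3 and finally 16, 24 and 22 at H4. Its log2 fold change was 2.94 at H3–H4 (SE 0.63, edgeR) and 1.84 at H1–H4 (SE 0.57, edgeR), as a description, since it passed the filter only with the libraries of H4. Those of H4 lay above all earlier libraries of PCP022563.

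Ethylene, the hormone that drives ripening in climacteric fruit, is made by ACC synthase (ACS) and ACC oxidase (ACO) and perceived by receptors such as ERS1 and ERS2. Of 7 such genes named by the study, 6 were tested, and the ACS gene PCP013122 among them passed the filter only with the libraries of H4. Of the other 5, all were called higher at H1–H4, beside 18.1% of all genes, 2 at H3–H4, beside 11%, 1 at H1–H2, beside 3.94%, and none at H2–H3, beside 2.98% (edgeR). The call at H1–H2, of the ACO gene PCP009685 (edgeR, adjusted p = 0.044), was not made by limma-voom. At H2–H3, 1 of the 6, PCP013122, was past an unadjusted p of 0.05 in edgeR, at least 2.51-fold higher (edgeR, adjusted p = 0.080). It was not called there, and none of the 6 was called by DESeq2 or limma-voom either. Whether auxin and ethylene genes differ at that transition was not tested.

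The pattern of each auxin gene over the 12 libraries was also compared, as Pearson's r of log2(CPM + 1), with 29 genes that the study annotated outside the auxin pathway and that passed the filter. These r are descriptions over libraries that share stages and depth. Aux/IAA PCP003908 and auxin responsive PCP012330 were most like the ACS gene PCP013122 (r = 0.96 and 0.98). Auxin-induced PCP019182 was most like polygalacturonase PCP006771 (r = 0.96), an enzyme that takes pectin apart, and the IAA-like PCP012166 was most like the MADS gene PCP007024 (r = 0.94), of a family of transcription factors. PCP029646 was most like the AP2/ERF gene PCP027843 (r = 0.98), at few counts. PCP027843, PCP013122 and PCP012330 passed the filter only with the libraries of H4, and PCP029646 was above the floor only there. The r of these genes with each other are therefore no sign of likeness beyond a high level in H4. The r of PCP003908 with PCP013122 is likewise one with a gene that entered through its level in H4. The Auxin Response Factor PCP022634 and PIN3 PCP021016 were both most like the COBRA-like gene PCP011926 (r = 0.85 and 0.92), and PCP011951 had no close match there (r = 0.53 at most, with PCP007024).

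Among all genes tested, r of at least 0.95 was reached by 116 genes with PCP003908, 175 with PCP012330, 99 with PCP019182, 36 with PCP012166, 38 with PCP029646, and 1 gene each with PCP011951, PCP022634 and PCP021016. An r of -0.95 or below was reached by 8 genes with PCP021016, by 0 with PCP022634 and by 4 to 141 with each of the others. The most alike genes, with no annotation used here, were PCP044524 for PCP003908 (r = 0.99), PCP021832 for PCP012330 (r = 0.99), PCP031781 for PCP022634 (r = 0.96) and PCP025980 for PCP021016 (r = 0.96). Within the 8 genes, the pairs most alike were PCP003908 with PCP012330 (r = 0.98) and PCP012166 with PCP019182 (r = 0.96). PCP012330 passed the filter only with the libraries of H4, and PCP029646 was above the floor only there. Their r, and the numbers of genes alike to them, therefore restate in part a high level in H4. The 2 declining genes had r = 0.70 with each other, and between -0.43 and -0.87 with the 6 others.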

How the data were processed

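RNA was measured in 12 RNA-seq libraries of pear flesh, 3 per harvesting stage, grouped by their labels. Per the labels the libraries were non-directional. Antisense or overlapping genes cannot be separated in them, and near-identical copies can share reads. The kit, sequencer and read length of the labels are other ones than those of the study's methods. The submitters' processing notes name HISAT2, StringTie and DESeq2, and the versions and genome build are not given in the sources used here. The deposited values were read as raw counts, since all are whole numbers with unequal library totals, although the table is named for FPKM. The sources used here do not state the unit, and every CPM and test rests on this reading. Its 4 stage columns, a deposited signal that is the authors' mean of the 3 libraries, were not tested. The plan allowed for counts or FPKM, and the count test was used.

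Counts were fitted in R 4.3.3 with edgeR 4.0.16 (TMM, quasi-likelihood, all 12 libraries in 1 model, filter of 1 CPM in at least 3 libraries, Benjamini-Hochberg adjustment). SE and 95% intervals are approximate, from the log2 fold change and its F statistic. At or under 3 counts per library (0.300 to 0.379 CPM) a fold is given as a bound. DESeq2 1.42.0, limma 3.58.1, other filters and scalings, 6 libraries only, a replicate block and leaving out each library were alternatives. Tests were checked on simulated data. Gene names are the study's, and the 8 genes, the lists and the named genes (the 8, the 2 other auxin genes, and for each of the 8 the most alike gene in pattern, for 4 of them also among unannotated genes) were chosen with earlier results of these data known. Tables and plots were made with pandas 2.3.3, numpy 2.4.6 and matplotlib 3.10.9 under Python 3.11.15.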

Additional observations from a re-analysis of the deposited data

How the results depend on the processing

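Under 21 alternatives, 520 of 553 values of single genes kept their direction and their side of the threshold, and 15 of 27 gene results did so throughout. With only the 6 libraries compared 1 auxin gene was called at H1–H2, instead of 2, and with the filter of 5 CPM 1 was called at H3–H4, since PCP012330 did not pass it. Leaving out each library in turn gave 1 to 2 calls at H1–H2, 2 to 4 at H2–H3, 2 to 3 at H3–H4 and 6 to 7 at H1–H4. Without H3 replicate 1 and H4 replicate 3 together, an alternative chosen after seeing the data, 2, 2, 2 and 5 genes were called in these comparisons. PCP012330 and PCP011951 then did not pass the filter, so that the calls of PCP012330 in the main test were not among them.

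Values that changed sign belonged to results that were not called. With limma-voom PCP011951 went to -0.36 at H1–H2 and to 0.62 at H3–H4, and with total-count scaling PCP012166 went to -0.051 at H3–H4. Leaving out single libraries gave PCP003908 -0.025 to 0.072 and PCP022634 -0.088 to 0.026 at H1–H2, and PCP011951 -1.95 to 1.18 at H1–H2, -0.18 to 6.03 at H2–H3 and -2.55 to 3.51 at H3–H4. The cause was not tested.

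Same-numbered libraries of different stages were correlated in their deviations from the stage means by -0.04 to 0.24. Of the 12 libraries, 7 correlated best with their own number, more than an even spread over the numbers would give. These values do not settle whether the numbers pair the samples, and the main model used no pairing. A block for the replicate number gave 2, 2, 3 and 6 called auxin genes at H1–H2, H2–H3, H3–H4 and H1–H4. PCP012330 lost its call at H2–H3 (edgeR, adjusted p = 0.058) and PCP019182 gained one at H3–H4 (edgeR, adjusted p = 0.049). Depth limits PCP029646, PCP011951 and, before H4, PCP012330. With 0.25 in place of 1 added to the CPM, 7 of the 8 most alike annotated genes were the same.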
